A study of Mus musculus with 4 samples.

Results

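Known targets of the let-7 microRNAs and oncofetal genes, which are active in the embryo and again in many tumours, were followed in adult mouse mesenchymal stem cells that carried an empty virus or a virus for NR6A1. The group was a list of 29 gene symbols, with Nr6a1 itself left out. Of these, 28 had a row among the 21881 genes of the deposited table, and Fignl2 was not analysed here. The cells were 2 immortalised monoclonal lines of C57BL/6 bone marrow mesenchymal stem cells, clone 6 and clone 12, both Dicer f/f with Dicer, the enzyme that let-7 needs to mature, left intact. Each line received the pMMP-puro retrovirus as vector control or with Flag-HA-NR6A1, so that each group held 2 samples, 1 per line. Each sample was 1 library of polyadenylated RNA, each line descends from 1 cell, and no repeat culture of a line is named, so p-values measure how alike both lines differed. NR6A1 (GCNF) is a nuclear receptor with no known ligand that acts in embryos and germ cells, and the series title names its gene among those that let-7 holds down in adult fibroblasts.

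let-7 is a family of microRNAs that accumulates as cells leave the embryonic state. It guides Argonaute proteins to short matches in the 3′ untranslated region (3′ UTR) of messenger RNAs and lowers their stability and translation. LIN28A and LIN28B block let-7 processing, and their own messages are let-7 targets, which makes a switch between an embryonic and an adult state. HMGA2 and the IGF2BP proteins are well known oncofetal products that let-7 holds down in the adult state.

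Levels are given as FPKM, the fragments of a gene scaled to its transcript length and to all mapped fragments, which allows genes to be compared per length. Depth, inferred from the steps between low values, was 20400000 to 24200000 mapped reads per library, where 1 FPKM on a transcript of 2 kilobases was 36.6 to 43.4 reads. Nr6a1 was at 4.18 and 2.80 FPKM under vector and at 783 and 598 with NR6A1 (clone 6, then clone 12). Of 9 mesenchymal markers 8 were at 1 FPKM or more in all 4 libraries, while Thy1 was at 0.030 or less. Of 8 blood, endothelial and epithelial markers 5 were under 0.1 FPKM in all libraries, Cd14 was at 5.47 to 8.35, and Cd34 was at 13.8 and 9.99 FPKM in clone 12 against 0.116 and 0.131 in clone 6. In bulk RNA, fewer cells that express a gene and less RNA per cell cannot be told apart.

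The let-7 sequences are shown first because most members carry matches to them. Of 11 mature 5′ let-7 family sequences in RefSeq (build GRCm38.p6), 10 had the seed GAGGUAG at bases 2 to 8, and let-7j alone had another. Capitals mark the seed in 4 of them.
let-7a-5p, chr13:48538239-48538260, minus strand: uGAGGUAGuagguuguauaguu
let-7d-5p, chr13:48536078-48536099, minus strand: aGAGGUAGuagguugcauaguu
let-7i-5p, chr10:122985698-122985719, minus strand: uGAGGUAGuaguuugugcuguu
miR-98-5p, chrX:151913229-151913250, plus strand: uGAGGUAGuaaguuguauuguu
Counted from the 5′ end, let-7d differed from let-7a by U1A and U16C, miR-98 by G11A and A19U, and let-7i at 4 bases, all outside the seed.

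Matches to this seed were searched on the mRNA strand of annotated 3′ UTRs (GENCODE M21, GRCm38, longest coding transcript of each gene). The 8-mer CTACCTCA pairs with bases 2 to 8 and has an A after them. The 7-mers CTACCTC (bases 2 to 8) and TACCTCA (bases 2 to 7 and the A) were counted where they were not part of an 8-mer. Of the 28 members 18 (64.3%) held an 8-mer and 26 (92.9%) held any of these sites, with 64 sites in all, of which 24 were 8-mers. Over the 19692 genes of the table with a matched 3′ UTR the shares were 3.15% and 15.1%. Members had long 3′ UTRs, with a median of 2085.5 bases against 983. Among 2919 genes with 3′ UTRs of like length (median 2063 bases) the shares were 4.25% and 23.2%. Such genes became known as let-7 targets in part through these sites, so the share describes the list and is not a test of it.

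A selection of 8-mer sites in members on which the results turn is shown with the bases before them, the site in capitals, in the transcript's direction. It holds all 3 of Igf2bp1 and 1 each of Lin28a and Trim71. All lie in 3′ UTRs, in GRCm38 coordinates.
Hmga2, chr10:120364224-120364247, minus strand: cgccgacattcaatttCTACCTCA
Igf2bp1, chr11:95961778-95961801, minus strand: tgctgtgcgaagtaaaCTACCTCA
Igf2bp1, chr11:95959357-95959380, minus strand: ccagcagtgctattaaCTACCTCA
Igf2bp1, chr11:95958763-95958786, minus strand: agtataaatggatgaaCTACCTCA
Igf2bp2, chr16:22059473-22059496, minus strand: aacacacaaataaaagCTACCTCA
Igf2bp3, chr6:49086787-49086810, minus strand: gtgcatttttactcaaCTACCTCA
Lin28a, chr4:134005189-134005212, minus strand: tgcacagcctgttgaaCTACCTCA
Lin28b, chr10:45381022-45381045, minus strand: cacccgggcgggaagtCTACCTCA
Trim71, chr9:114512472-114512495, minus strand: caacattgcctaagtcCTACCTCA
Cdc34, chr10:79688111-79688134, plus strand: ggcctcaggcgacagaCTACCTCA
Rrm2, chr12:24713346-24713369, plus strand: ctaaaaagctgtgtagCTACCTCA
Nap1l1, chr10:111497154-111497177, plus strand: gggactgttgattcaaCTACCTCA
Trim71 held 4 8-mers, Igf2bp1 held 3 and Lin28a held 2. Hmga2 held the most sites of any kind, 7, of which 1 was an 8-mer. Hras1 and Dicer1 held none, and for Dicer1 the search covered the 3′ UTR and not the coding sequence.

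**Figure D1:**
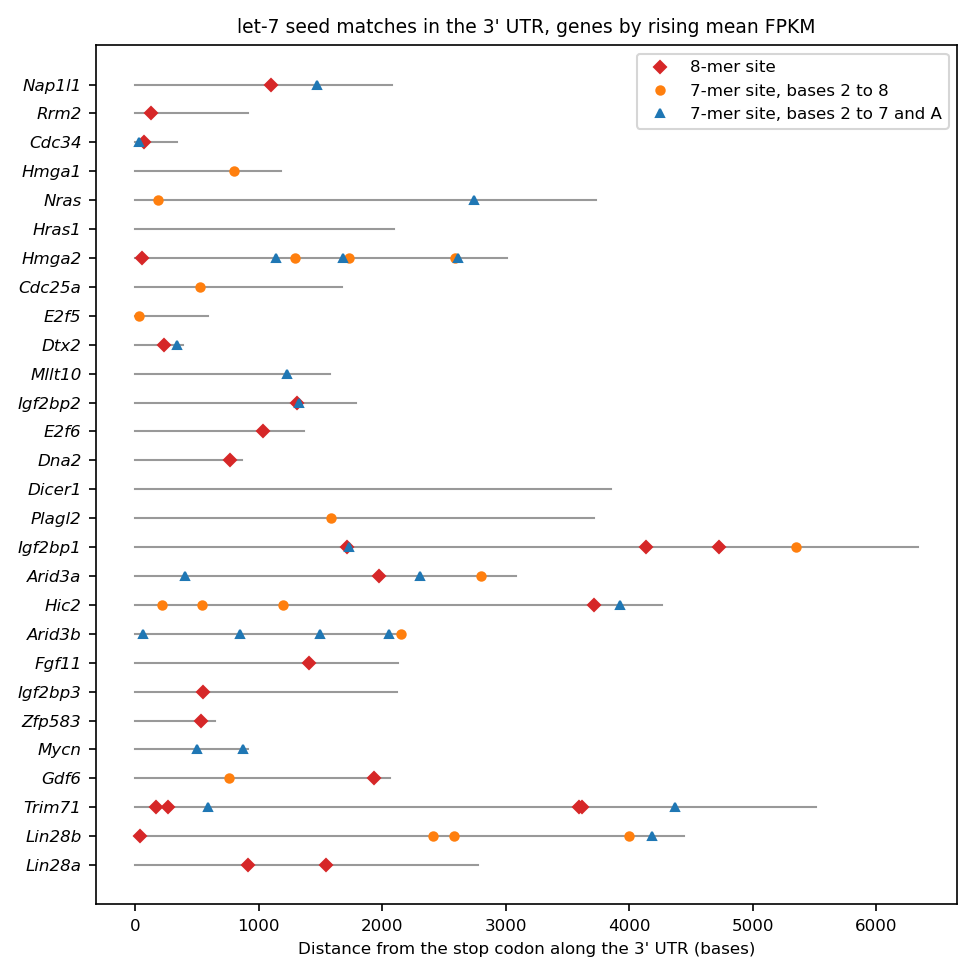
Position of let-7 seed matches in the 3′ UTR of 28 members. The x axis is the distance from the stop codon in bases, each grey line is a 3′ UTR, diamonds are 8-mers, and circles and triangles are the 7-mers. Genes are ordered by mean FPKM with the highest at the top, and 8-mers are present at both ends of the order.

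The first question was which of these genes are on in these adult lines. A gene was called on where it reached 1 FPKM in all 4 libraries, which 48.7% of the genes in the table did. Of the 28 members 19 were on, 6 were under 0.1 FPKM in every library, and 3 (Arid3b, Fgf11 and Igf2bp3) lay between. The mean levels of the members ran from 0.000328 to 289 FPKM, with a median of 7.35 FPKM.

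The factors that block let-7 or act beside it were at the bottom. Lin28a was listed at 0 in 3 libraries and at 0.00131 FPKM in the NR6A1 library of clone 6, and Lin28b at 0 in the same 3 and at 0.00151, both below the value of 1 inferred read. Trim71, a ubiquitin ligase and RNA-binding repressor of the early embryo, was at 0.00822 and 0.0174 FPKM under vector and at 0 and 0.00975 with NR6A1, at most 3.64 inferred reads. Dicer1, the ribonuclease that cuts let-7 from its precursor, was on at 5.97 and 5.46 FPKM under vector and 5.62 and 4.90 with NR6A1. Its groups overlapped, as the vector library of clone 12 was below the NR6A1 library of clone 6.

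The IGF2BP family, RNA-binding proteins that stabilise and localise messages such as those of Igf2 and Myc, was expressed unequally. Igf2bp1 was at 3.30 and 2.60 FPKM under vector and 3.18 and 2.96 with NR6A1. Igf2bp3 was at 0.386 and 0.503 FPKM under vector and 0.536 and 0.434 with NR6A1. Igf2bp2 was at 19.1 and 1.03 FPKM under vector and 22.3 and 1.53 with NR6A1. Both clone 6 libraries stood far above both clone 12 libraries for Igf2bp2, while Igf2bp1 and Igf2bp3 kept to a narrow range.

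Other members at the level of a few reads were Mycn, a MYC family transcription factor of neural and kidney progenitors, the BMP ligand Gdf6 and the zinc finger gene Zfp583. Mycn was read in clone 6 alone, at 0.0354 FPKM under vector and 0.0197 with NR6A1, at most 2.11 inferred reads. Zfp583 was read in clone 12 alone, at 0.0339 and 0.0474 FPKM. Gdf6 was at 0.0261 FPKM or less in each library. Fgf11, an intracellular FGF-like protein, was at 0.688 and 0.729 FPKM under vector and 0.990 and 0.408 with NR6A1. For the genes at a few reads a difference between groups was not detectable at this depth.

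Members of the cell cycle and of DNA synthesis were the most abundant, with all 5 on. Nap1l1, a histone chaperone, was at 313 and 237 FPKM under vector and 332 and 274 with NR6A1, above 98.5% of the genes in the table by its mean. Rrm2, the small subunit of ribonucleotide reductase, was at 176 and 149.8 FPKM against 133 and 141, and Cdc34, a ubiquitin-conjugating enzyme, at 135 and 111 against 153 and 136. These 3 genes each hold an 8-mer in the 3′ UTR. Cdc25a, the phosphatase that activates cyclin-dependent kinases, was at 18.9 and 22.0 FPKM under vector and 19.1 and 24 with NR6A1, and the nuclease-helicase gene Dna2 at 11.4 and 7.14 against 10.2 and 8.09.

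Of the RAS genes, Nras was at 40.5 and 49.8 FPKM under vector and 41.4 and 50.6 with NR6A1, and Hras1 at 45.9 and 37.4 against 50.0 and 42.6. Dtx2, a ubiquitin ligase of the Notch pathway, varied least, from 17.5 to 18.5 FPKM. Among transcription regulators, E2f5 and E2f6, which act mainly as repressors, were at 17.2 to 21.8 and 9.66 to 12.3 FPKM. Mllt10, a cofactor of histone H3 methylation, was at 12.1 to 14.8, and Plagl2, a zinc finger activator, at 3.85 to 4.70. Arid3a was at 1.15 to 2.26 FPKM, its relative Arid3b at 0.727 to 1.71, and the repressor gene Hic2 at 1.11 to 1.46. Arid3b was the 1 member that passed 1 FPKM in the NR6A1 libraries (1.71 and 1.10) and not in the vector libraries (0.899 and 0.727).

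Members with an 8-mer stood at both ends of the range of levels. Of the 18 members with an 8-mer 11 were on and 5 were under 0.1 FPKM in all libraries, and their mean levels ran from 0.000328 to 289 FPKM with a median of 2.40. Of the 8 members with 7-mers alone 6 were on, with a median of 16.4 FPKM. Of the 3 members with more than 1 8-mer, Igf2bp1 was on and Lin28a and Trim71 were not. Other oncofetal genes were mostly low. Of 9 listed, 1 was on, the trophoblast glycoprotein gene Tpbg at 11.3 to 15.4 FPKM. Afp, the fetal serum protein of liver and yolk sac, was at 0.457 to 0.777 and Mdk, a heparin-binding growth factor, at 0.498 to 0.859.

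**Figure D2:**
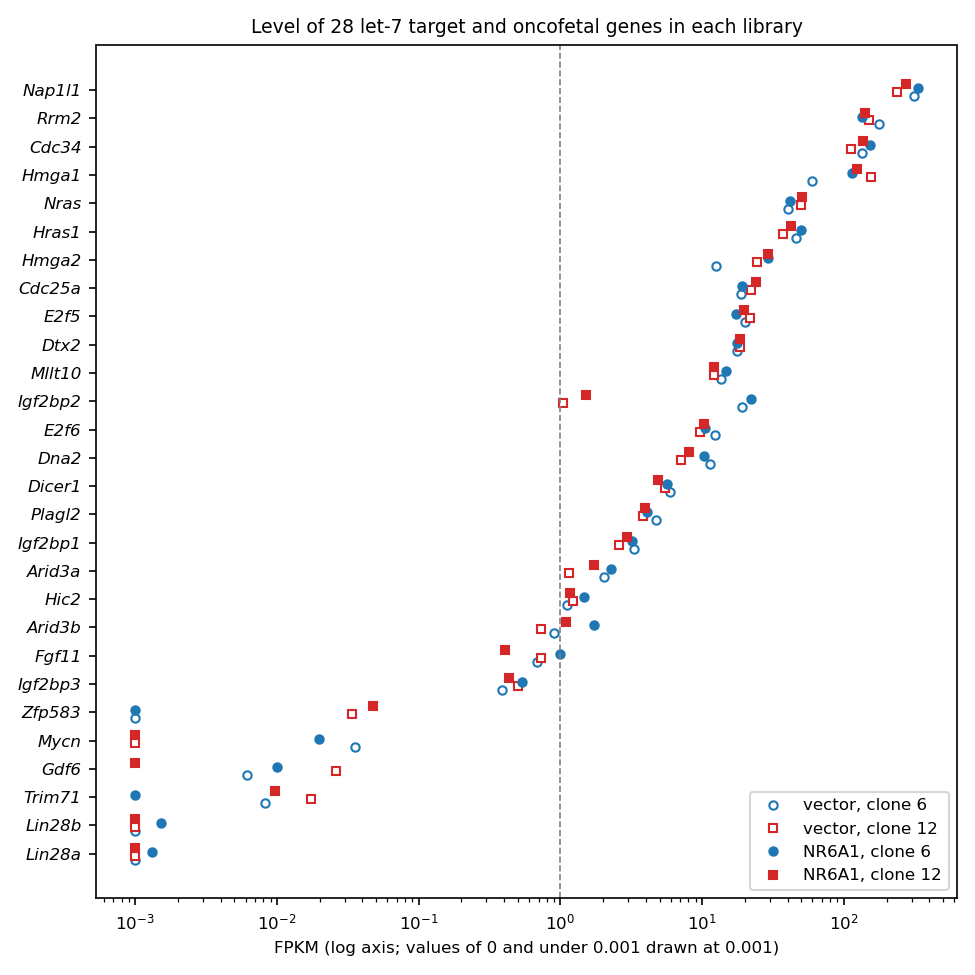
FPKM of 28 members in each of the 4 libraries, on a log axis, with values of 0 and under 0.001 drawn at 0.001. Open symbols are vector, filled symbols NR6A1, circles clone 6 and squares clone 12, and the dashed line is 1 FPKM. For Igf2bp2 the 2 clone 6 libraries (19.1 and 22.3) stand apart from the 2 clone 12 libraries (1.03 and 1.53).

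The second question was whether the members differ when NR6A1 is raised. Values were compared as log2(FPKM + 1), a scale that understates the change of low genes, for the 11346 genes whose mean reached 1 FPKM. This included 20 of the 28 members. limma was fitted over all these genes with clone as a block, two-sided, with Benjamini-Hochberg adjustment and a threshold of 0.05. No member passed it (adjusted p from 0.561 to 0.996), where 0.0353% of all genes tested did. At an unadjusted p under 0.05 there were 2 members, Hmga2 and Cdc34, of 20, against 8.48% of all genes tested. The design has 2 libraries per group, and the median standard error over the members was 0.10 log2 units.

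In direction, 10 of the 20 tested members were higher with NR6A1 in both clones and 3 were lower in both, where 28.9% of all genes tested were higher and 29.4% lower in both. The other 7 went in opposite directions, as did 41.7% of all genes tested. Among the 10, Arid3b met the filter only through its NR6A1 libraries (mean 1.41 FPKM, against 0.813 under vector). Its direction was therefore not independent of the filter. The median log2 difference of the members was 0.06, with 0.06 in clone 6 and 0.11 in clone 12, against 0.00098 over all genes tested. Under quantile normalization and upper quartile scaling 11 and 9 members were higher in both clones, and 3 were lower under each. For 16 of the 20 members the difference was smaller than 0.25 log2 units.

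Hmga2, a DNA-bending protein of embryonic chromatin and the classical let-7 target, had the largest difference among the members. It was at 12.4 and 24.2 FPKM under vector and at 29 and 29 with NR6A1. The vector library of clone 6 was the low one, and both NR6A1 libraries were above both vector libraries. The mean of the vector libraries was 18.3 ± 8.31 FPKM and that of the NR6A1 libraries 29 ± 0.0031 (SD, n = 2). The log2 difference was 0.70 ± 0.24 (SE, limma adjusted p = 0.582), with a 95% interval of 0.03 to 1.38. It was 1.16 in clone 6 and 0.25 in clone 12, or 2.33-fold and 1.2-fold in FPKM. Without the vector library of clone 6 it was 0.25, in a fit that had no clone block.

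Its relative Hmga1, expressed in many dividing cells, was at 59.6 and 155 FPKM under vector and 115 and 123 with NR6A1. It was higher with NR6A1 in clone 6 and lower in clone 12, and the groups overlapped (log2 difference 0.30 ± 0.33, adjusted p = 0.782 by limma). In both HMGA genes the vector library of clone 6 had the lowest value.

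Of the further members higher in both clones, Cdc34 had a log2 difference of 0.23 ± 0.07 (limma adjusted p = 0.561) and both NR6A1 libraries above the vector library of the same clone. Arid3b differed by 0.40 ± 0.19 and Arid3a by 0.23 ± 0.17, at levels near 1 FPKM where the added 1 shrinks a change. In FPKM Arid3b was 1.91-fold and 1.51-fold higher with NR6A1 in clone 6 and clone 12, and Arid3a 1.12-fold and 1.51-fold. Igf2bp2 differed by 0.26 ± 0.10 on top of its gap between clones. Hras1 differed by 0.15 ± 0.07 and Nap1l1 by 0.15 ± 0.08.

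Lower in both clones were Rrm2, by -0.24 ± 0.11 on the log2 scale, E2f5, by -0.17 ± 0.08, and Dicer1, by -0.10 ± 0.10. Rrm2 was at 176 and 149.8 FPKM under vector and 133 and 141 with NR6A1, so that both NR6A1 libraries were below both vector libraries. E2f5 was at 19.9 and 21.8 FPKM against 17.2 and 19.6, with the same order and a gap of less than 1 FPKM between groups.

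For members with a difference near 0, the interval shows which changes the data still allow. The 95% interval of the NR6A1 difference was -0.33 to 0.43 log2 units for Igf2bp1 and -0.17 to 0.22 for Nras. For Dtx2 it was -0.21 to 0.21.

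**Figure D3:**
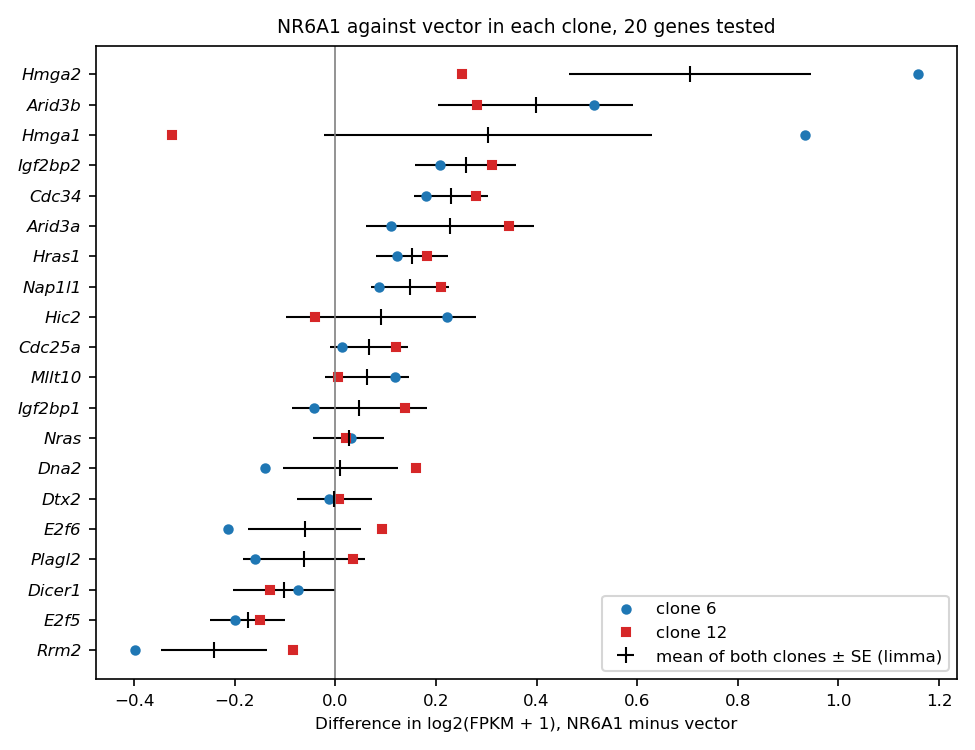
Difference in log2(FPKM + 1), NR6A1 minus vector, for the 20 members tested. Circles are clone 6, squares clone 12, and black ticks with bars are the limma estimate ± SE. Most differences lie within 0.25 of 0. Hmga2 (1.16) and Hmga1 (0.93) stand out in clone 6, while in clone 12 they were at 0.25 and -0.33.

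The wider set of genes with a let-7 8-mer, members included, was centred near 0. Of the tested genes with a matched 3′ UTR, 391 held an 8-mer, and their median log2 difference was 0.0044 against 0.0017 for the 8991 without a site. Of the 391, 30.2% were higher with NR6A1 in both clones and 25.6% lower, against 29.3% and 29.7% of all 10764 tested genes with a matched 3′ UTR.

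The other genes of the pathway were taken from lists. Of 22 genes of microRNA processing and action 21 were on and tested, and none passed for NR6A1 (adjusted p of at least 0.657 by limma, 0 at an unadjusted p under 0.05), with 5 higher and 6 lower in both clones. Of 30 further let-7 targets 29 were tested and none passed (adjusted p of at least 0.467 by limma, 5 at an unadjusted p under 0.05), with 8 higher and 5 lower in both clones. For both lists the shares over all genes tested were 8.48% at an unadjusted p under 0.05, 28.9% higher and 29.4% lower in both clones. Among the further let-7 targets Fas, the death receptor, was at 11.9 and 6.95 FPKM under vector and 4.48 and 4.72 with NR6A1. Its log2 difference was -0.86 ± 0.21 (SE, limma adjusted p = 0.467). At an unadjusted p under 0.05, Thbs1 (-0.81) and Tgfbr1 (-0.32) were also lower in both clones. Acvr1b (0.32) and Hoxa9 (0.27) were higher in both.

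The third comparison was between the lines. Clone 12 against clone 6 was read from the same limma fit, with virus as the block, and 21.9% of all genes tested passed. Of the 20 members 1 passed, Igf2bp2, by -3.26 ± 0.10 log2 units (SE, adjusted p = 0.00362), with a 95% interval of -3.54 to -2.97. Its mean was 16.2-fold higher in clone 6 in FPKM, and the size of its difference ranked 64 among the 11346 genes tested, of which 0.828% differed by at least 3 log2 units. Without the vector library of clone 12 the difference was -3.10 and did not pass, in a fit that had no virus block. With the other libraries left out in turn Igf2bp2 passed, also with no virus block. With no filter on low values its limma adjusted p was 0.0798, when limma called no gene between the clones.

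At an unadjusted p under 0.05 there were 7 members of 20, against 41.1% of all genes tested. Nap1l1 (-0.34 ± 0.08) and Dna2 (-0.46 ± 0.11) were lower in clone 12, and Nras (0.29 ± 0.07) higher, with limma adjusted p of 0.0540, 0.0635 and 0.0599. These 3 passed in limma fits without short RNA genes (adjusted p 0.0294, 0.0346 and 0.0393) and with a robust prior, and Nap1l1 also with a pseudocount of 0.1 and with upper quartile scaling. Under both viruses 12 members were higher in clone 6 and 5 higher in clone 12, where 35.9% and 43.9% of all genes tested were. The median member difference was -0.15 log2 units against 0.04 over all genes tested. It was -0.16 and -0.19 under quantile normalization and upper quartile scaling, against 0.0063 and -0.0078.

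Hmga1 and Hmga2 had their largest clone difference in the vector libraries, 59.6 against 155 FPKM and 12.4 against 24.2. In the NR6A1 libraries the clones were close, at 115 and 123 FPKM for Hmga1 and 29 and 29 for Hmga2. Neither passed between clones (limma adjusted p = 0.18 and 0.236).

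**Figure D4:**
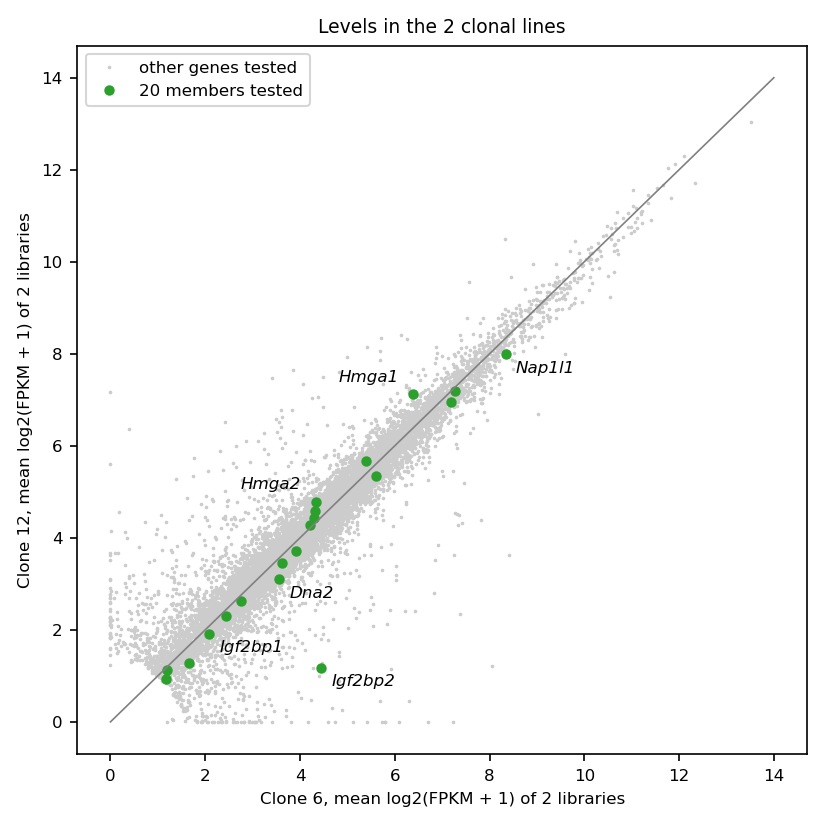
Mean log2(FPKM + 1) of the 2 libraries of clone 12 (y axis) against clone 6 (x axis). Grey points are genes tested, green points the 20 members tested, and the line marks equal levels. Igf2bp2 lies 3.26 below the line and the other members lie close to it.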

How the data were processed

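Messenger RNA of 4 samples was measured, and the authors deposited 1 FPKM value per gene and library. The authors used mouse build mm9 with TopHat 1.2.0 and Cufflinks 1.0.3, per the submitters' processing notes. For the gene annotation and strand, nothing is given in the sources used here. Cufflinks can share reads between near-identical or overlapping genes. Members and lists were chosen with earlier results of these data known. Every member is named, with, from the fixed lists, genes past the threshold or otherwise the most abundant and most changed; some results are not reported here.

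Depth was estimated from 1-read steps of low FPKM over genes with 1 annotated length of at least 1500 bases (length minus 210). The depth that best put low values on whole reads was taken. There 49.0% to 52.6% of values under 10 reads, the lowest left out, lay within 0.1 of a whole read. The chance share of 20% holds for a depth not fitted to these values, so the share is no test of the depth. Many values lay off whole reads, so no count test was run. Values were tested as log2(FPKM + 1) at a mean of at least 1 FPKM with limma 3.58.1 in R 4.3.3 (mean-variance trend, virus and clone as terms, 1 residual and 2.9 prior degrees of freedom), after a test on simulated data. Clone is a block because each line received both viruses, per the labels' protocols. Clone differences correlated across genes between viruses with r = 0.628, or 0.873 without the 197 short RNA genes. GENCODE M21 and RefSeq (GRCm38) gave names, lengths and 3′ UTRs for 19692 of 21881 symbols. Alternatives were other pseudocounts, filters, scalings and priors, no block, no short RNA genes, and each library left out.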

Additional observations from a re-analysis of the deposited data

Results flagged for a closer look

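In 7 of the 20 tested members the NR6A1 difference had opposite directions in the 2 clones, as it had in 41.7% of all genes tested; with 1 library per clone and virus the difference between clones was not tested. Hmga1 had the widest gap, with a log2 difference of 0.93 in clone 6 and -0.33 in clone 12. Dna2 had -0.14 in clone 6 and 0.16 in clone 12, and E2f6 had -0.21 and 0.092. Hic2 had 0.22 in clone 6 and -0.040 in clone 12, and Plagl2 had -0.16 and 0.036. Igf2bp1 had -0.043 in clone 6 and 0.14 in clone 12, and Dtx2 had -0.012 and 0.0077.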

How the results depend on the processing

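No member was called for NR6A1 under any setting tried, and over all genes limma called 4, or 7 with a pseudocount of 5, 2 with no filter, 38 with a robust prior and 51 without 197 short RNA genes. Between clones 2490 genes and 1 member were called. With no filter none were, at 5360 genes and 8 members with an unadjusted p under 0.05. A pseudocount of 0.1 and upper quartile scaling each called 2 members (Igf2bp2 and Nap1l1), and a robust prior and the fit without short RNA genes each 4. Without the replicate block (clone for NR6A1, virus for clones) the counts were 4 and 1993 genes and 0 and 1 members, so no member's call changed. With 1 library left out, fits had no block, so clones or viruses were unbalanced and the direction count over both clones could not be computed. Genes called were then 0 for NR6A1 (96 to 286 at an unadjusted p under 0.05) and 41 to 889 between clones, with 0 to 1 members between clones. Reversals came only with a library left out. For NR6A1 the ranges were -0.38 to 0.99 for Hmga1, -1.39 to 1.91 for Igf2bp2, -0.082 to 0.18 for Igf2bp1, -0.016 to 0.47 for Arid3a, -0.22 to 0.099 for E2f6, -0.29 to 0.31 for Dna2, -0.18 to 0.054 for Plagl2, -0.092 to 0.23 for Cdc25a, -0.12 to 0.17 for Nras, -0.040 to 0.035 for Dtx2, -0.0014 to 0.18 for Hic2, -0.051 to 0.35 for Nap1l1 and -0.071 to 0.20 for Mllt10. Between clones they were -0.51 to 0.0041 for Arid3b, -0.16 to 0.057 for Hic2, -0.13 to 1.03 for Hmga2 and -0.27 to 0.12 for Rrm2. In these unbalanced fits part of the clone difference enters the NR6A1 difference, and part of the NR6A1 difference enters the clone difference. No cause was tested. Depth limits the members under 0.1 FPKM, which rest on 0 to 4 reads.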

Other observations

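Between the lines, 7 of the 29 further let-7 targets tested passed in limma, where 21.9% of all genes tested did. Among them, Myc (42.4 and 51.8 FPKM in clone 6 against 97.7 and 92.6 in clone 12), the kinase gene Mapk6 and the cytokine receptor gene Osmr (8.05 and 7.11 against 23.1 and 23.9) were higher in clone 12. Igf1r, the matrix gene Thbs1 and the semaphorin receptor gene Plxnd1 were higher in clone 6. Of 21 microRNA pathway genes tested, Tarbp2, a partner of Dicer, was higher in clone 12 (51.9 and 49.9 FPKM against 37.6 and 37.6) and Tnrc6c, a partner of Argonaute, in clone 6 (9.58 and 10.4 against 6.11 and 6.24).

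The table also lists 12 let-7 family genes. These rows are short, so few reads give a large FPKM, and libraries of polyadenylated RNA do not measure mature microRNAs. Mirlet7i was listed at 45.9 and 24.3 FPKM under vector and 26.4 and 27.2 with NR6A1, and Mirlet7c-2 at 16.0 and 17.0 against 18.4 and 38.0. Mirlet7b was at 68.8 and 0 against 106 and 27.2, Mirlet7d was read in 1 library, and the other 8 were listed at 0 throughout.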
